A study of Mus musculus with 24 samples.

Results

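The early response to the loss of CHIRON was taken as the change in RNA between 0 h and 2 h after the inhibitor was removed from mouse embryonic stem cells on soft substrates. It was chosen by labels alone, as 4 libraries from soft substrates (2 at 0 h and 2 at 2 h), with 3 libraries from stiff substrates (2 at 0 h and 1 at 2 h) used only to check direction. These are 7 of the 24 libraries of the series. The cells were E14, an established mouse embryonic stem cell line described as 129m wt, and all groups shared this line, so that a response of the line cannot be told apart from one of mouse embryonic stem cells in general. They were kept for 12 h on fibronectin-coated StemBond hydrogels in 2i + LIF, that is, with 1 µM PD03, 3 µM CHIRON and the cytokine LIF (0 h), and were then left in PD03 + LIF. The labels do not say whether the 2 replicates of a group came from separate cultures, so p-values measure only the spread between these samples. No group stayed in 2i + LIF for 2 h more, and the removal cannot be told apart from the medium change and the 2 h of further culture.

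CHIRON inhibits GSK3, the kinase that marks β-catenin for destruction. While it is present, β-catenin builds up, enters the nucleus and binds TCF factors, which lifts repression and activates Wnt target genes. Several of those targets, *Axin2* among them, encode inhibitors of the same pathway and are used as readouts of its activity. PD03 inhibits MEK and so keeps ERK signalling low, and LIF acts through Stat3. In mouse embryonic stem cells the 3 inputs together hold the naive state, in which *Esrrb*, *Klf4* and *Nanog* are expressed.

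Counts per library ranged from 20284530 to 28723066 in the 4 soft libraries and from 22661237 to 26501943 in the 3 stiff libraries. Stiff 2 h replicate 1 held 171333 counts and was left out, so that replicate 2 is the stiff library at 2 h. The stem cell markers *Pou5f1*, *Sox2*, *Nanog*, *Esrrb*, *Zfp42* and *Utf1* were at 121 to 1089 CPM (counts relative to the library total, scaled by TMM) in the soft libraries. The summed level of 6 tested markers of primitive endoderm was 104 to 118 CPM at 0 h and 112 to 118 CPM at 2 h, that of 6 markers of trophectoderm was 73.3 to 78.4 and 68.5 to 75.8, that of 5 markers of fibroblasts was 183 to 197 and 175 to 189, and that of 4 neural markers was 34.4 to 39.0 and 39.9 to 43.5. Most of the first 3 sums came from 1 gene each, *Lama1* (92.0 to 105 CPM), *Tfap2c* (49.7 to 56.9) and *Vim* (168 to 188). *Nes* (20.2 to 24.0) and *Sox1* (11.4 to 17.3) made up most of the neural sum. The fibroblast markers *Col1a1*, *Col1a2*, *Thy1* and *Twist1* were at 0.431 to 3.90 CPM. *Sox7*, *Hand1*, *Col3a1*, *Dcn*, *Lum* and *Neurog2* were below the filter on low counts. Of the tested markers of other cells none passed at 2 h by edgeR or DESeq2, and 3 had an unadjusted p under 0.05 (1249 of all 13669 genes tested did).

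The stretch before the start of *Sp5* is shown because this gene gave the largest change among the Wnt targets, beside that of *Axin2*, the other marker of this response. Both are the 250 bases before the start given by RefSeq on GRCm38.p6, on the plus strand, at chr2:70474673-70474922 for *Sp5* and chr11:108920099-108920348 for *Axin2*. Capitals mark CTTTGA, the core letters that TCF factors bind, searched on both strands (TCAAAG on the other).
Sp5: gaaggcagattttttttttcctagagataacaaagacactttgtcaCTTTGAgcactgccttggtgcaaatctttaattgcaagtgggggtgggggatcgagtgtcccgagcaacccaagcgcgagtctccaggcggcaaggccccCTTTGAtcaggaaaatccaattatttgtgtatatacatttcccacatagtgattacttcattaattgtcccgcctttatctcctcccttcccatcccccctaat
Axin2: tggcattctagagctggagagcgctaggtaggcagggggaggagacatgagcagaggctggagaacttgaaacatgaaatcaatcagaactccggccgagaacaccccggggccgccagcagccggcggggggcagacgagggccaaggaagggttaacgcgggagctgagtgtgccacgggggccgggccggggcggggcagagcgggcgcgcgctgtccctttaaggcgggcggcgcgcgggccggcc
The *Sp5* stretch held the letters at 204 to 199 and at 104 to 99 bases before the start, and that of *Axin2* held none in this window. Among all 32851 stretches of this length in the table, 13.8% held CTTTGA on either strand, and 3.21% held the longer CTTTGAT. Of the genes described next, 8 that fell and 13 that rose had an entry. The letters were found in 2 of the 8 (*Sp5* and *Cdc42ep4*) and in 2 of the 13 (*Ppp1r10* and *A930004D18Rik*). The longer CTTTGAT was found in 1 of the 8 (*Sp5*) and in 0 of the 13.

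At 2 h on soft substrates 18 genes rose and 9 fell among the 13669 protein-coding genes tested, which is 0.132% and 0.0658% of them, 0.198% in all (edgeR quasi-likelihood test, Benjamini-Hochberg adjusted p under 0.05). Of the 27 genes, 8 changed more than 2-fold. The 2 h libraries did not overlap the 0 h libraries in all 27, as in 40.5% of all genes tested, and the same libraries chose the genes. At an unadjusted p under 0.05 there were 1249 genes, 806 higher and 443 lower. The count rested on each library. It was 11 without soft 0 h replicate 1, 10 without soft 0 h replicate 2, 15 without soft 2 h replicate 1 and 8 without soft 2 h replicate 2. *Sp5*, *Id3*, *Ppp1r10*, *Klhdc7a*, *Dido1* and *Mmrn2* passed in all 4 of these fits, and the other 21 genes lost the call in at least 1. In bulk RNA, fewer cells that express a gene and less RNA per cell cannot be told apart.

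*Sp5*, a zinc finger factor that is a direct Wnt target and limits the output of the pathway, lies at chr2:70474923-70477729. It stood at 168 and 157 CPM at 0 h and at 85.9 and 71.2 CPM at 2 h. The 2 h libraries were both far below the 0 h libraries, with means of 163 ± 7.72 and 78.5 ± 10.4 (SD, n = 2). The log2 fold change was -1.05 (SE 0.09, edgeR adjusted p = 1.12e-05).

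*Axin2*, the scaffold of the β-catenin destruction complex that Wnt signalling induces as feedback, lies at chr11:108920349-108950783. Its level was 187 and 193 CPM at 0 h and 134 and 125 CPM at 2 h. These groups did not overlap either, with a log2 fold change of -0.55 (SE 0.08, edgeR adjusted p = 0.00201), so that the level fell by 31.8% in 2 h. The adjusted p was 0.0672 without soft 0 h replicate 2 and 0.0876 without soft 2 h replicate 2. Exons of *Axin2* overlap those of an annotated gene on the opposite strand, and whether reads were counted by strand is not given in the sources used here.

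The 9 genes that fell had a median log2 fold change of -0.68. *Id3* changed most. It encodes an inhibitor of bHLH factors, is known as a target of BMP signalling, and lies at chr4:136143497-136145755. Its level was 28.2 and 28.8 CPM at 0 h against 11.1 and 7.76 CPM at 2 h, a log2 fold change of -1.60 (SE 0.16, edgeR adjusted p = 4.94e-05). Both 2 h libraries were far below both 0 h libraries.

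*Spry4*, a Sprouty inhibitor of receptor tyrosine kinase signalling, was at 44.5 and 38.1 CPM at 0 h and at 22.7 and 18.9 CPM at 2 h (log2 fold change -0.99, SE 0.18, edgeR adjusted p = 0.0206). *Gbx2*, a homeobox factor known to favour self-renewal downstream of LIF and Stat3, was at 65.0 and 62.7 CPM and then at 41.0 and 36.5 CPM (log2 fold change -0.72, SE 0.09, edgeR adjusted p = 0.000851). *Cdkn1a*, which encodes the CDK inhibitor p21, was at 224 and 209 CPM and then at 151 and 134 CPM (log2 fold change -0.60, SE 0.09, edgeR adjusted p = 0.00224). In each of the 3 the lower 0 h library was well above the higher 2 h library.

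Also lower at 2 h were *Ifrd1*, *Cdc42ep4* and *Gpatch3*. *Ifrd1*, a transcriptional co-regulator, was at 69.4 and 67.0 CPM at 0 h and at 44.0 and 48.2 CPM at 2 h (log2 fold change -0.56). *Cdc42ep4*, an effector of the GTPase Cdc42, was at 54.8 and 49.6 CPM and then at 35.1 and 38.2 CPM (log2 fold change -0.51). *Gpatch3*, a G-patch protein, was at 21.7 and 18.6 CPM and then at 12.12 and 12.98 CPM (log2 fold change -0.68), and it was the gene of this group closest to the threshold, with an edgeR adjusted p of 0.0462.

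**Figure D1:**
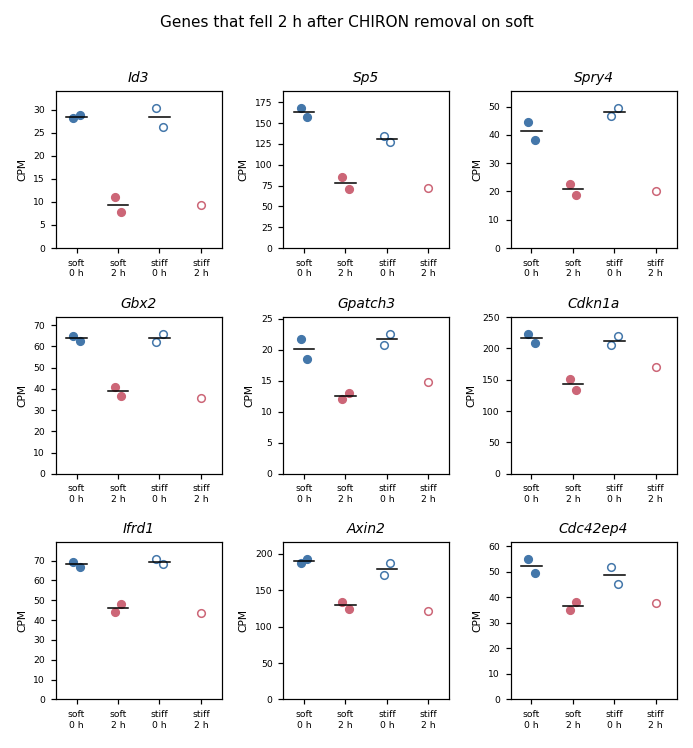
CPM of the 9 genes that fell at 2 h on soft substrates, 1 panel per gene with its own axis from 0; each point is a library, bars are means of 2 libraries, filled points are soft and open points stiff, where 2 h has 1 library. In every panel both soft 2 h points and the stiff 2 h point lie below the 0 h points of their own substrate, as for *Id3*, which went from 28.2 and 28.8 CPM to 11.1 and 7.76 CPM on soft.

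The 18 genes that rose had a median log2 fold change of 0.74 and spanned 0.48 to 1.82. The most clearly changed was *Ppp1r10*, at chr17:35916434-35932283, which encodes PNUTS, a nuclear regulatory subunit of protein phosphatase 1 with a part in ending transcription. It was at 234 and 259 CPM at 0 h and at 765 and 705 CPM at 2 h. The level was 2.98-fold higher at 2 h (log2 fold change 1.58, SE 0.08, edgeR adjusted p = 1.3e-08), and this was the smallest p of the comparison.

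Other regulators of transcription and RNA processing also rose. *Pcf11*, a factor for cleavage, polyadenylation and termination, went from 99.5 and 110 CPM to 151 and 162 CPM (log2 fold change 0.58, SE 0.08, edgeR adjusted p = 0.00106). *Dido1*, a PHD finger protein, went from 343 and 395 CPM to 623 and 597 CPM (log2 fold change 0.72, SE 0.09, edgeR adjusted p = 0.000754). *Klf7*, a Krüppel-like factor, went from 36.6 and 36.0 CPM to 52.8 and 53.6 CPM (log2 fold change 0.55). These genes were put together after their values were seen, and no test was made of them as a group.

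*Id2*, a relative of *Id3* with the same kind of inhibitory protein, moved the other way. It was at 1.33 and 2.46 CPM at 0 h and at 5.54 and 5.82 CPM at 2 h, from 27, 57, 91 and 108 counts (log2 fold change 1.57, SE 0.26, edgeR adjusted p = 0.0118). *Hoxb9*, a homeobox factor of the posterior body axis, went from 9.78 and 9.54 CPM to 19.2 and 19.6 CPM (log2 fold change 1.00, SE 0.13, edgeR adjusted p = 0.00139).

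Among genes for signals and their receptors, *Fgf4*, the FGF ligand through which these cells activate ERK, went from 146 and 137 CPM to 216 and 217 CPM (log2 fold change 0.62, SE 0.08, edgeR adjusted p = 0.000847). *Irs2*, an adaptor of the insulin receptor, went from 47.4 and 49.7 CPM to 71.4 and 64.4 CPM (log2 fold change 0.48, edgeR adjusted p = 0.0497), which was just inside the threshold. *Ptger1*, a receptor for prostaglandin E2, had the largest fold change and few counts. It went from 2.11 and 2.55 CPM to 6.94 and 9.54 CPM (log2 fold change 1.82, SE 0.26, edgeR adjusted p = 0.0029).

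Of the remaining genes that rose, *Klhdc7a*, a kelch domain protein, went from 16.6 and 18.7 CPM to 34.2 and 37.0 CPM (log2 fold change 1.01, SE 0.11, edgeR adjusted p = 0.000363). *Mmrn2*, an extracellular matrix protein known from blood vessels, went from 34.1 and 37.5 CPM to 59.8 and 77.3 CPM (log2 fold change 0.94, SE 0.12, edgeR adjusted p = 0.000757). *Mfsd2b*, a sphingosine-1-phosphate transporter, went from 9.34 and 8.64 CPM to 16.9 and 23.5 CPM (log2 fold change 1.17). The 2 h libraries of these last 2 genes differed from each other more than the 0 h libraries did. *Lrrc15*, a leucine-rich repeat membrane protein, went from 16.2 and 18.0 CPM to 27.4 and 27.3 CPM (log2 fold change 0.67). *A930004D18Rik*, *Jrk*, *Nabp1* and *Pigl* had log2 fold changes of 0.75, 0.77, 0.53 and 0.50.

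**Figure D2:**
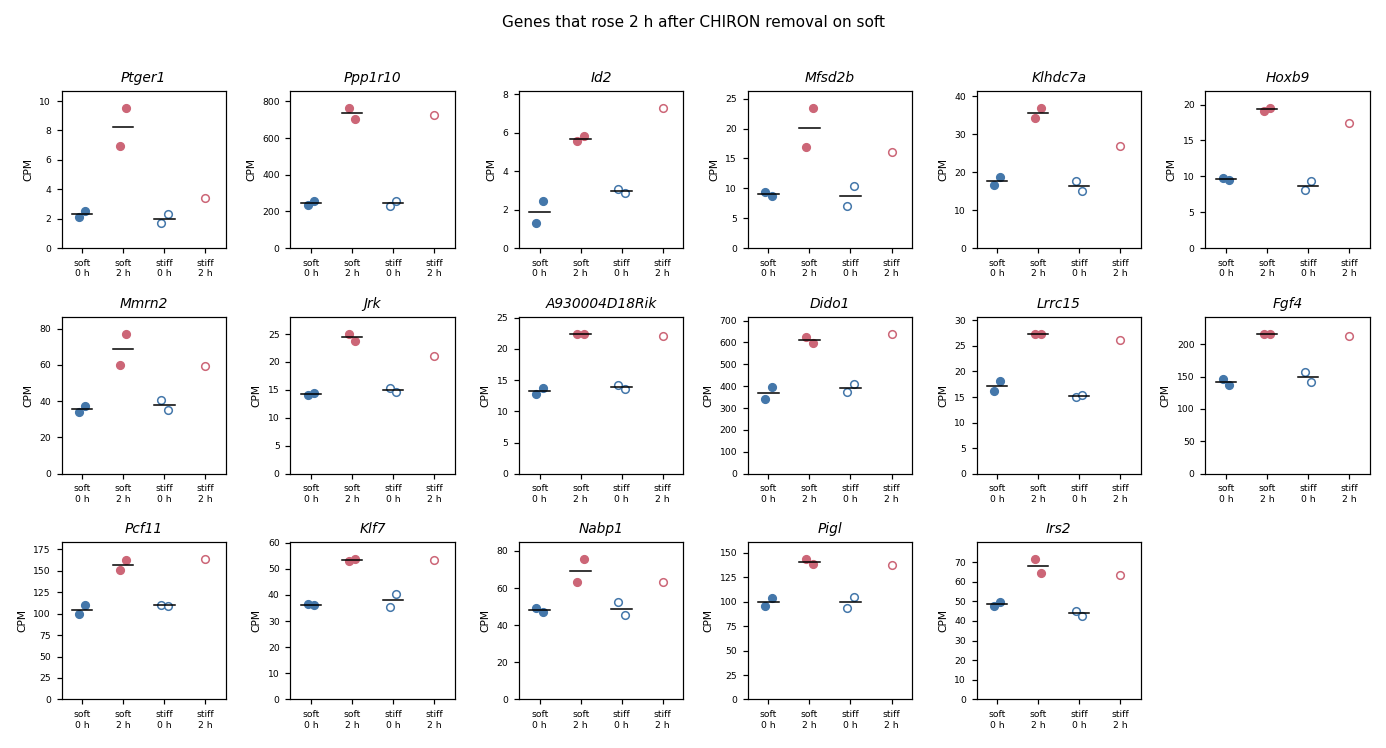
CPM of 17 of the 18 genes that rose at 2 h on soft substrates, 1 panel per gene with its own axis from 0; each point is a library, bars are means of 2 libraries, filled points are soft and open points stiff, where 2 h has 1 library. The 2 h points lie above the 0 h points of their own substrate in every panel, most clearly for *Ppp1r10* (234 and 259 CPM against 765 and 705 CPM on soft), and for *Ptger1* the stiff 2 h point is well below both soft 2 h points.

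Features of the genes that the rule did not use were their size and structure. The median span from start to end of the gene was 9752 bases in those that fell and 14902.5 bases in those that rose, against 23966 bases over all genes tested, and the longest transcript had a median of 3 and 4 exons against 8. The median exonic length was 3553 and 5541 bases against 4426 bases. Exons of 13 of the 27 overlapped those of another annotated gene, on the opposite strand in 11 cases.

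In a list of 12 Wnt feedback genes 11 were tested, and 2, *Axin2* and *Sp5*, fell, where 0.198% of all genes tested passed in either direction. Both genes were known as markers of this response when the list was made, and the other 9 did not pass. At an unadjusted p under 0.05 there were 3 of the 11, against 1249 of all 13669 genes tested. The median log2 fold change of the list was -0.09, against 0.00 over all genes tested (0.00391). *Dkk1*, a secreted Wnt antagonist, stood at 5.90 and 6.05 CPM at 0 h and 3.78 and 3.99 CPM at 2 h without passing (log2 fold change -0.62, SE 0.22, edgeR adjusted p = 0.357).

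None of the 20 genes for TCF factors and the destruction complex passed by edgeR or DESeq2. Of these 20, 2 had an unadjusted p under 0.05 (1249 of all 13669 genes tested did), and the median of the list was 0.01. *Ctnnb1*, the gene of β-catenin itself, had a log2 fold change of -0.05 (SE 0.07), and *Tcf7* one of -0.10 (SE 0.10). Of 36 genes for Wnt ligands, receptors and secretion, 23 were tested and none passed by edgeR or DESeq2 (4 at an unadjusted p under 0.05), with a median of 0.03. The 13 others were below the filter on low counts.

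Genes of the primitive streak include known Wnt targets. None of the 8 tested of 13 passed by edgeR or DESeq2, with a median of -0.05. At an unadjusted p under 0.05 there was 1 of the 8, against 1249 of all 13669 genes tested. *T*, which encodes brachyury, was at 7.42 and 8.94 CPM at 0 h and at 8.65 and 9.10 CPM at 2 h (log2 fold change 0.12, SE 0.18). *Cdx1*, a caudal homeobox factor, was at 170 and 167 CPM and then at 163 and 149 CPM (log2 fold change -0.11, SE 0.11). At 12 h both were much lower, with log2 fold changes of -4.81 for *T* (edgeR adjusted p = 5.86e-09) and -3.94 for *Cdx1* (edgeR adjusted p = 2.27e-12).

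Naive pluripotency genes are the readout of the state that these media support. Of 15 tested, *Gbx2* fell and 14 did not pass, where 0.198% of all genes tested passed in either direction. The median was -0.11, against 0.00391 over all genes tested. At an unadjusted p under 0.05 there were 5 of the 15, against 1249 of all 13669 genes tested. *Nanog* was at 592 and 583 CPM at 0 h and at 631 and 614 CPM at 2 h (log2 fold change 0.08, SE 0.09). *Esrrb* was at 1058 and 1089 CPM and then at 984 and 895 CPM (log2 fold change -0.19, SE 0.08). *Klf4* was at 524 and 545 CPM and then at 430 and 438 CPM without passing (log2 fold change -0.30, SE 0.07, edgeR adjusted p = 0.136), although DESeq2 called it lower. None of 13 genes of general and formative pluripotency and none of 13 genes of the LIF and Stat3 pathway passed by edgeR or DESeq2, with 1 and 4 at an unadjusted p under 0.05 and medians of -0.00172 and -0.03.

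Among 11 genes induced by ERK that in part restrain it, 1, *Spry4*, fell, where 0.198% of all genes tested passed in either direction. The list had 4 members at an unadjusted p under 0.05, against 1249 of all 13669 genes tested, and a median of -0.17. DESeq2 called no gene of this list, *Spry4* included. *Spry2* was at 99.8 and 101 CPM at 0 h and at 87.3 and 74.3 CPM at 2 h (log2 fold change -0.31, SE 0.09, edgeR adjusted p = 0.228). *Dusp6*, a phosphatase of ERK, was at 16.6 and 16.1 CPM and then at 12.24 and 12.39 CPM (log2 fold change -0.41, SE 0.13, edgeR adjusted p = 0.276). *Myc* was at 45.9 and 40.6 CPM and then at 36.0 and 29.2 CPM (log2 fold change -0.41, SE 0.12, edgeR adjusted p = 0.229), and none of the 10 genes of its network passed by edgeR or DESeq2 (2 at an unadjusted p under 0.05).

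In the list of BMP, Id and Nodal genes 12 of 14 were tested, and *Id2* rose while *Id3* fell. Over all genes tested 0.198% passed in either direction. At an unadjusted p under 0.05 there were 4 of the 12, against 1249 of all 13669 genes tested. The median was -0.05. *Id4* was at 16.2 and 14.7 CPM at 0 h and at 12.7 and 11.7 CPM at 2 h (log2 fold change -0.34, SE 0.15, edgeR adjusted p = 0.527). Of 9 G1 cyclins and CDK inhibitors *Cdkn1a* alone passed, also at an unadjusted p under 0.05, and the median was -0.08.

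The lists of immediate early genes (18 tested), YAP targets (11), stress and nutrient response (14), sterol synthesis (12), Notch and Hes genes (8) and cleavage stage genes (7) had no member past the edgeR threshold. They had 5, 4, 3, 3, 2 and 0 members at an unadjusted p under 0.05 (1249 of all 13669 genes tested). Their medians were -0.04, 0.09, -0.13, -0.01, -0.14 and -0.13. In these lists *Amotl2*, a YAP target, and *Ddit3*, a stress factor, came closest, and DESeq2 called these 2 and no other member. *Amotl2* was at 161 and 156 CPM at 0 h and at 197 and 219 CPM at 2 h (log2 fold change 0.40, SE 0.08, edgeR adjusted p = 0.0509). *Ddit3* was at 13.1 CPM in both 0 h libraries and at 6.70 and 8.40 CPM at 2 h (log2 fold change -0.79, SE 0.16, edgeR adjusted p = 0.0594).

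On stiff substrates the direction was the same. The single stiff library at 2 h lay beyond both stiff libraries at 0 h, on the side seen on soft, for all 27 genes, against 43.0% of all genes tested. These libraries had no part in choosing the genes, although they shared the estimate of the spread, and with 1 library at 2 h no test was made on stiff. *Sp5* was at 134 and 128 CPM at 0 h and 71.8 CPM at 2 h, *Axin2* at 171 and 188 CPM and then 121 CPM, and *Id3* at 30.4 and 26.3 CPM and then 9.37 CPM. *Ppp1r10* was at 231 and 257 CPM and then 723 CPM. The fitted log2 fold changes on stiff had a median of 0.67 in the genes that rose and -0.68 in those that fell. They were smaller in size than on soft in 21 of the 27, a comparison that the choice of genes on soft favours. *Ptger1* differed most in size, with 1.82 on soft and 0.75 on stiff.

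**Figure D3:**
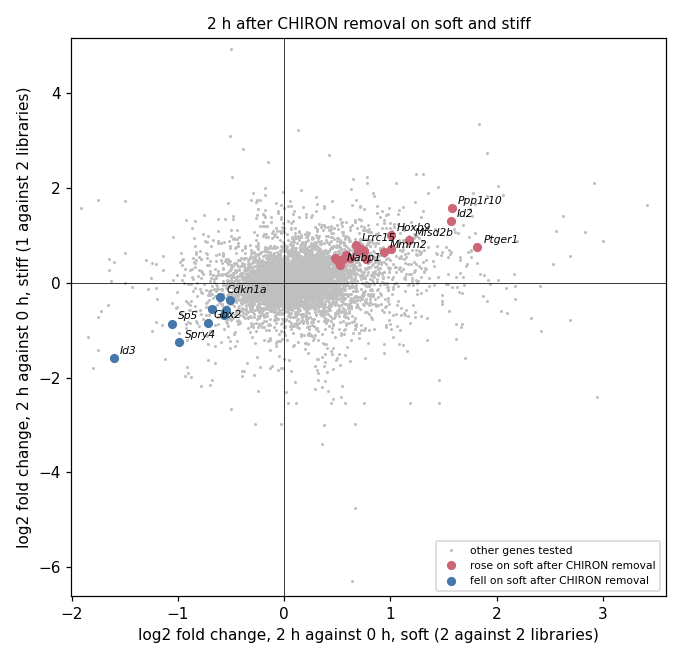
Fitted log2 fold change at 2 h against 0 h on soft (x axis, 2 against 2 libraries) and on stiff (y axis, 1 against 2 libraries) for the 13669 genes tested; red points rose and blue points fell on soft, grey points are the others. All 27 coloured points lie in the 2 quadrants of equal sign, whereas 60.7% of all genes tested have equal signs.

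The 2 h and 12 h values of a substrate share their 0 h libraries, so they are set side by side and not compared by a test. At 12 h on soft, 2618 of the 13669 genes (19.2%) passed. The genes that fell at 2 h had a median log2 fold change of -2.35 at 12 h. *Sp5* was at 2.36 and 2.45 CPM by then, with log2 fold changes of -1.05 at 2 h and -6.08 at 12 h. *Id3* had -1.60 and -3.02, *Gbx2* -0.72 and -2.66, *Axin2* -0.55 and -2.64, and *Spry4* -0.99 and -2.35. These 5 all passed at 12 h (edgeR adjusted p of 2.22e-07 or less) with values well beyond those of 2 h. *Ifrd1* had -0.56 and -0.90, *Cdc42ep4* -0.51 and -0.68, and *Cdkn1a* -0.60 and -0.62, and these also passed at 12 h (edgeR adjusted p of 8.67e-05 or less). *Gpatch3* had -0.68 and -0.22 and did not pass at 12 h (edgeR adjusted p = 0.25).

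The genes that rose were mostly back near the 0 h level at 12 h, with a median of 0.02 on soft. Of the 18, 14 lay within 0.3 of 0 on the log2 scale, a share that was not computed over all genes tested. *Ppp1r10* was at 203 and 207 CPM (log2 fold change -0.27, edgeR adjusted p = 0.0304), *Pcf11* at 103 and 105 CPM (-0.01) and *Dido1* at 360 and 319 CPM (-0.12). *Mmrn2* was below its 0 h level, at 23.8 and 23.9 CPM (-0.59, SE 0.12, edgeR adjusted p = 0.00236). *Fgf4*, *Lrrc15* and *Id2* were still above 0 h, with 1.29, 1.16 and 1.00 at 12 h (edgeR adjusted p of 4.42e-09, 8.87e-07 and 0.0145).

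The stiff libraries at 0 h and 12 h took no part in naming the genes. There the 9 genes that fell were all lower at 12 h, with a median of -2.42, and 8 of the 18 that rose were higher, with a median of -0.04. Over all genes tested 50.7% were lower at 12 h on stiff. *Fgf4* was at 157 and 142 CPM at 0 h on stiff, at 213 CPM at 2 h and at 324 and 340 CPM at 12 h.

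**Figure D4:**
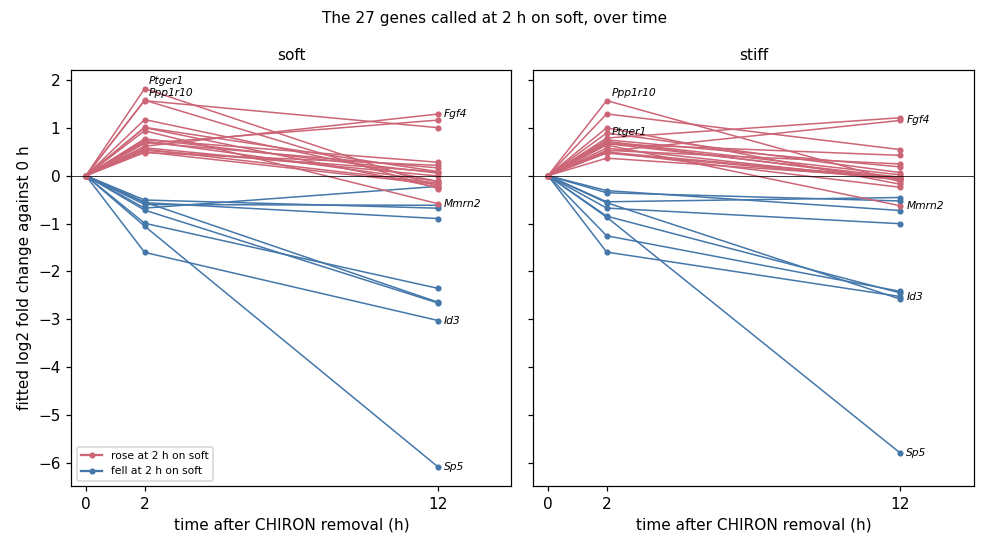
Fitted log2 fold change against 0 h of the 27 genes called at 2 h on soft, at 2 h and 12 h after CHIRON removal, on soft (left) and stiff (right, where 2 h has 1 library); lines join the values of a gene, which share their 0 h libraries. Red lines (rose at 2 h) mostly return to near 0 at 12 h, with medians of 0.02 on soft and -0.04 on stiff, and blue lines (fell at 2 h) reach medians of -2.35 and -2.42.

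The removal of PD03 in its place, which leaves cells in CHIRON + LIF, was measured in a separate experiment with the same time points and its own 0 h libraries. The inhibitor removed thus cannot be told apart from the experiment. Some soft 0 h levels differed between the experiments under the same stated medium. *Myc* was at 45.9 and 40.6 CPM in that of CHIRON removal against 4.60 and 3.98 CPM, and *Sp5* at 168 and 157 against 62.8 and 66.0. *Gbx2* was alike, at 65.0 and 62.7 against 64.5 and 58.7 CPM. The CPM of CHIRON removal were scaled among its own 11 libraries, and those of PD03 removal among 23 libraries of both experiments. The 2 sets of levels were thus not on exactly the same scale. To ask which changes differed between the removals, both experiments were fitted together, with 23 libraries, and the log2 fold change at 2 h on soft after PD03 removal was subtracted from that after CHIRON removal. Among 12575 genes tested the difference passed for 127 (1.01%), of which 46 were higher and 81 lower after CHIRON removal (edgeR quasi-likelihood test). The counts were 18 and 51 without soft 0 h replicate 2 of CHIRON removal, 19 and 36 without PD03 soft 0 h replicate 1, 25 and 45 without PD03 soft 0 h replicate 2, 27 and 36 without PD03 soft 2 h replicate 1, and 18 and 47 without PD03 soft 2 h replicate 2. In this fit, PD03 removal alone changed 100 genes (0.795%) at 2 h. The share of counts in mitochondrial genes at 0 h and 2 h on soft was 5.83 to 7.72% in the 4 libraries of PD03 removal and 3.36 to 4.57% in the 4 of CHIRON removal, and its part in the difference was not tested.

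Of the 127 genes, 10 passed in both responses, and in opposite directions. None passed in both in the same direction. In 44 only the PD03 response passed, in 44 only the CHIRON response, and in 29 neither did. The choice of these genes by their difference favours opposite directions, so it does not show that the removals share no response. Outside the 127, the list member *Amotl2* was higher after both CHIRON and PD03 removal (log2 fold change 0.37 and 0.45, edgeR adjusted p = 0.00241 and 0.000213). The genes named next are those with the smallest adjusted p of the difference in each direction, and all 12 passed under every alternative run for this comparison.

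*Spry4* and *Id3* fell after CHIRON removal and rose after PD03 removal. *Spry4* was at 18.2 and 19.4 CPM at 0 h of the PD03 experiment and at 161 and 166 CPM at 2 h, and the difference of log2 fold changes was -4.14 (SE 0.20, edgeR adjusted p = 4.53e-13). *Id3* was at 38.9 and 40.0 CPM and then at 86.4 and 93.5 CPM (difference -2.82, SE 0.15, edgeR adjusted p = 2.93e-12). In both genes the 2 removals thus gave groups that did not overlap, on opposite sides of 0 h.

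*Dusp6* rose after PD03 removal from 31.8 and 31.4 CPM to 116 and 120 CPM (difference -2.34, SE 0.11, edgeR adjusted p = 4.53e-13). *Myc* rose there from 4.60 and 3.98 CPM to 13.4 and 11.7 CPM (difference -1.98, SE 0.21, edgeR adjusted p = 2.14e-06). *Tiparp*, an ADP-ribosyltransferase, rose from 94.3 and 97.4 CPM to 152 and 151 CPM (difference -1.22, SE 0.11, edgeR adjusted p = 1.23e-07). In the fit of 23 libraries *Dusp6* and *Tiparp* also passed as lower after CHIRON removal (log2 fold change -0.43 and -0.56, edgeR adjusted p = 0.0107 and 0.000456), although the fit of 11 libraries called neither. *Egr1*, an immediate early factor induced by ERK, was listed at 0 and 0.173 CPM at 0 h and reached 20.6 and 21.4 CPM, so that its fold change rests on almost no counts at 0 h and is not given. In the list of ERK-induced genes 7 of 11 differed between the removals, against 1.01% of all genes tested. All 7 had a lower log2 fold change after CHIRON than after PD03 removal, as had 81 of all 12575 genes. Of the 7, only *Spry4*, *Dusp6* and *Spry2* passed as lower after CHIRON removal itself in this fit. The list's median was -0.19 after CHIRON removal and 0.59 after PD03 removal, against -0.02 and 0.00101 over all genes.

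*Fgf4* and *Lrrc15* rose after CHIRON removal and fell after PD03 removal. *Fgf4* went from 189 and 192 CPM to 126 and 124 CPM after PD03 removal (difference 1.20, SE 0.10, edgeR adjusted p = 1.24e-08), and *Lrrc15* from 12.0 and 11.9 CPM to 6.37 and 6.74 CPM (difference 1.52, SE 0.18, edgeR adjusted p = 1.04e-05). *Ppp1r10* was at 133 and 125 CPM before and 122 and 129 CPM 2 h after PD03 removal (difference 1.59, SE 0.10, edgeR adjusted p = 3.03e-11). *Pcf11*, *Klhdc7a* and *Mmrn2* had differences of 0.79, 1.1 and 0.88.

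For the 2 Wnt markers the outcome was mixed. *Sp5* had a log2 fold change of 0.08 (SE 0.09) after PD03 removal, and the difference passed (-1.16, SE 0.13, edgeR adjusted p = 3.8e-06). *Axin2* had -0.22 (SE 0.07) there, and its difference did not pass (-0.35, SE 0.10, edgeR adjusted p = 0.0837). Of the 27 genes called after CHIRON removal, 5 passed in the PD03 response, whose libraries had no part in choosing them, and all 5 (*Id3*, *Spry4*, *Cdc42ep4*, *Fgf4* and *Lrrc15*) in the opposite direction. By sign alone, whether they passed or not, 12 of the 27 had the opposite direction after PD03 removal. The median log2 fold change after PD03 removal was 0.02 in the genes that rose and 0.08 in those that fell after CHIRON removal.

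**Figure D5:**
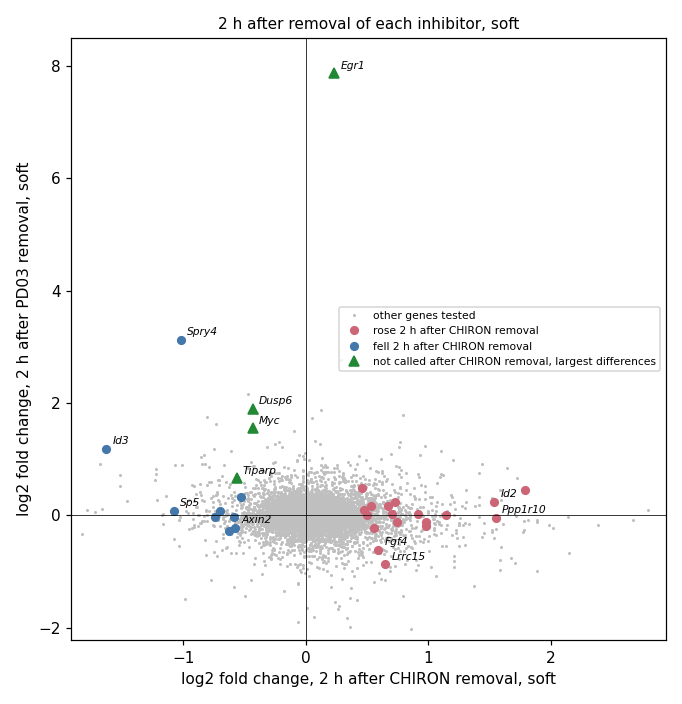
Log2 fold change at 2 h on soft after CHIRON removal (x axis) and after PD03 removal (y axis) for 12575 genes, from the fit of 23 libraries. Red points rose and blue points fell after CHIRON removal in the fit of 11 libraries. Green triangles are 4 other genes among the largest differences, not called in that fit, of which *Dusp6* and *Tiparp* passed as lower after CHIRON removal in the fit of 23. *Spry4* and *Id3* lie at upper left and *Fgf4* and *Lrrc15* at lower right, and the height of *Egr1* rests on almost no counts before PD03 removal.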

How the data were processed

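RNA was measured by ribosomal RNA-depleted sequencing. Per the labels and the study's methods, the authors trimmed reads with Trim Galore, aligned them to GRCm38 (mm10) with TopHat2 2.1.0 and counted them per gene with featureCounts 1.5.0. The deposited counts were not normalised, and no strand setting was given. Another 12 sample columns of the PD03 table were not used.

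Protein-coding genes by GENCODE M21 were filtered on the 4 soft libraries (minimum count 10, minimum total 15), scaled by TMM and fitted with edgeR 4.0.16 (R 4.3.3) in 11 libraries and 6 groups; the standard error is the log2 fold change divided by the square root of F. On simulated data for this comparison, with 13669 genes, edgeR called 150 of 200 genes changed by a log2 of 1 and 12 others. Named genes were *Axin2*, *Sp5*, up to 12 of smallest adjusted p and 6 of largest fold change in each direction among called genes whose groups did not overlap, the 6 of smallest adjusted p in each direction of the difference, and members of the lists. *Klf7*, *Irs2*, *Jrk* and *Nabp1*, which rose, were named after their values were seen; the values at 12 h were added after the values at 2 h were seen, and 1 gene that rose is not reported here. The members and lists were chosen with earlier results of these data known. Alternatives were other size factors, DESeq2 1.42.0, filters, sets of libraries, blocks and left-out replicates. Same-numbered soft libraries at 0 h and 2 h did not deviate together (correlation -0.00962), and replicates differed beyond sampling noise (chi-square over its degrees of freedom at least 5.87). Precision is that of 2 libraries of 20284530 to 28723066 counts per group.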

Additional observations from a re-analysis of the deposited data

How the results depend on the processing

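Numbers of genes past the threshold moved with the fit, and the cause was not tested beyond the libraries or genes that an alternative leaves out or adds. Against 18 genes that rose and 9 that fell, counts were 101 and 43 with no filter on low counts, 35 and 13 in a fit of the 4 soft libraries, 0 and 1 (*Id3*) with all 12 libraries, the one of 171333 counts included, 2 and 2 with a block by tube number, and 33 and 17 by DESeq2. In the fit of 23 libraries, chosen as an alternative after seeing the data, they were 81 and 74. Without 1 library they ranged from 6 to 29 and from 2 to 9, where leaving out soft 12 h or stiff 0 h libraries was chosen after seeing the data. DESeq2 size factors, all genes of the table and the replicate block gave 28, 24 and 22 genes in all, the last from numbers that the samples share without being shown to be paired. In the main fit 240 members of the lists were tested, and 2.92% of them passed, against 0.198% of all genes tested. Members of the lists past the threshold were 7, and 15 with no filter, 1 with all 12 libraries, 2 with the tube block, 16 with 23 libraries and 2 to 8 without 1 library. *Sp5* had an adjusted p of 0.502 with all 12 libraries (log2 fold change -1.06), and *Axin2* one of 1.00 there (-0.55) and of 0.0665 with the tube block (-0.58), whereas *Axin2* spanned -0.61 to -0.50 without 1 library. Without 1 soft library *T* spanned -0.0076 (no soft 0 h replicate 1) to 0.25 and *Tcf7* -0.24 to 0.015 (no soft 2 h replicate 2), neither past the threshold. With no filter 93.8% of called genes had the same direction on stiff, against 100% (all 27). The difference from PD03 removal gave 46 and 81 genes, and from 18 to 48 and from 36 to 79 without 1 library.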
